A study of Mus musculus with 6 samples.

Results

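The sites described here are the places in the mouse macrophage genome where the signal of CTBP2 was clearly lower after lipopolysaccharide than after vehicle, called lost sites below. They were chosen on measured values, by a rule in 2 steps. Each of the 6 libraries was first divided by its own median over all sites and multiplied by 45, which gives the median-scaled signal used throughout. The change M is then log2(mean LPS + 1) minus log2(mean vehicle + 1), and a site was kept where M was -0.9 or less and the highest LPS library lay below the lowest vehicle library. The rule kept 1623 of 62236 sites (2.61%). The mirror rule, M of 0.9 or more with every LPS library above every vehicle library, kept 4747 sites, called gained sites. Since the rule used all 6 libraries, the difference between LPS and vehicle at lost sites is described below without a test.

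CTBP2 is a co-repressor. It does not bind DNA by itself but is brought to it by sequence-specific factors such as zinc finger and E-box proteins, and it carries histone-modifying enzymes with it, among them deacetylases and a lysine demethylase. Lipopolysaccharide (LPS), a cell wall component of Gram-negative bacteria, is sensed by Toll-like receptor 4 and switches macrophages within hours from housekeeping and repair functions to the production of cytokines and chemokines.

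The cells were bone marrow-derived macrophages, grown from marrow of wild-type male C57BL6/N mice aged 6 to 12 weeks, in medium with L929 supernatant for 6 days. Both groups were plated overnight in serum-free medium and then received vehicle (PBS) or 100 ng/ml LPS for 3 h, with 3 libraries each. Cells were fixed with DSG and formaldehyde, and chromatin was sheared to 500 to 1000 bp before immunoprecipitation with a CTBP2 antibody. The labels number the replicates without saying that they came from separate mice or cultures, so the spread between libraries may be technical. No input library or control immunoprecipitation was analysed here. A lower value in chromatin of many cells cannot tell apart fewer bound cells and less CTBP2 per cell.

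The 6 libraries were close in depth, at an estimated 3243244 to 4553202 reads in sites. Their deposited values were not on 1 level: over all sites the vehicle medians were 35.5, 37.3 and, in replicate 3, 73.0, and the LPS medians were 37.1, 48.8 and, in replicate 3, 61.0. With no rescaling the rule kept 1325 sites, and 1240 of them were among the 1623, which is 76.4% of the lost sites and 93.6% of the other set. The median lost site held an estimated 55 to 80 reads in a vehicle library and 30 to 36 in an LPS library. An average of 30 or more over the 6 libraries was reached by 1346 of the lost sites.

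Positions of sites are given as in the table and read as GRCm39, while its gene columns follow GRCm38. Genes were therefore placed by a shift measured along each chromosome, and each site is described by the named protein-coding gene with the nearest placed start. The shift put a site within 500 bp of 45.2% of 17357 gene starts held out from its fit, against 6.03% with no shift. Distances are approximate for this reason. The table's own symbol was the same as the placed gene at 567 of the lost sites (34.9%).

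Some lost sites lay at the starts of genes known from macrophages and other immune cells. The promoters of 6 of these genes are printed first, as examples. They were chosen after the values were seen and do not stand for all such starts. The choice was from 18 promoters of the reference table whose start had a lost site centred within 500 bp. Each runs from 250 bases before to 50 bases after the start on the gene's strand (RefSeq, GRCm38.p6), 5′ to 3′, and capitals mark matches to the 19 short motifs that were searched on both strands.
Gpnmb: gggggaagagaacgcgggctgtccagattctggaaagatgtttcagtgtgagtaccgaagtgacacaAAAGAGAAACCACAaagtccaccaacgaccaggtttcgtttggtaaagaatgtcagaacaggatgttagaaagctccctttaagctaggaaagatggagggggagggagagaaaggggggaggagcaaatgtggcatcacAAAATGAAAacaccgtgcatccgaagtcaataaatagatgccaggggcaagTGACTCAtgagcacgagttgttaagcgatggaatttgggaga
Cd36: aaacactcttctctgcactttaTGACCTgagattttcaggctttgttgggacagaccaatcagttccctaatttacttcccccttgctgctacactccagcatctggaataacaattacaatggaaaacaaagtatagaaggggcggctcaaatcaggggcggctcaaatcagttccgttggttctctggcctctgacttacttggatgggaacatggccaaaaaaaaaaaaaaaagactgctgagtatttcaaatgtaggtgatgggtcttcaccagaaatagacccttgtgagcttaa
Slco2b1: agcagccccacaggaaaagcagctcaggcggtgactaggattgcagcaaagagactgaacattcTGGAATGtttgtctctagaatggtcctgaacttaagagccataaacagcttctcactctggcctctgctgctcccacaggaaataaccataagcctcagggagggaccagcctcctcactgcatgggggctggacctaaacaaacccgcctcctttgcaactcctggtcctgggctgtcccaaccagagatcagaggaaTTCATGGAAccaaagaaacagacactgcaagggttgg
Fcrls: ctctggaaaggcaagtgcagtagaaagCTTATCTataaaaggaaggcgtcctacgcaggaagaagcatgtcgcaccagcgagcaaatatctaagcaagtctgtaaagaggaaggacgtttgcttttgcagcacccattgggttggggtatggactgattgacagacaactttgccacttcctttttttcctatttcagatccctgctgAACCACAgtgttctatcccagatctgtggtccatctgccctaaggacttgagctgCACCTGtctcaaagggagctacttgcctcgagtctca
Cnr2: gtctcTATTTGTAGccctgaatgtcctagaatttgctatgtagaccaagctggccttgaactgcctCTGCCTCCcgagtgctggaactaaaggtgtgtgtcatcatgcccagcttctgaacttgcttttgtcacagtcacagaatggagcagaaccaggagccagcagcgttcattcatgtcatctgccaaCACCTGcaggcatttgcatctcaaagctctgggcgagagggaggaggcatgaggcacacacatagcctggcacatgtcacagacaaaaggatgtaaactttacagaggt
Bank1: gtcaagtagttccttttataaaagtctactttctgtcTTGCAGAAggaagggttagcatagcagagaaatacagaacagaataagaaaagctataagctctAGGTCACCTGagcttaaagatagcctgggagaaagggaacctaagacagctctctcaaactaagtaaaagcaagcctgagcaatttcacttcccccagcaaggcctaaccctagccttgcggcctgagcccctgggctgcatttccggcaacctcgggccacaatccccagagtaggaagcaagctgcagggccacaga
The run in capitals near the start of the Gpnmb promoter joins a match to the IRF letters (AAANNGAAA) and an overlapping one to the RUNX letters (TGTGGTT on the other strand), and TGACTCA just after its start is the AP-1 match. In Fcrls and Cnr2 the run CACCTG is the ZEB E-box match (CAGGTG on the other strand), the kind of sequence read by the CTBP partners ZEB1 and ZEB2. A match is a description of letters and was not tested as a binding site.

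The lost sites started above the average site and ended below it. Their median vehicle mean was 63.9, at the 68.5th percentile of all sites, whose median was 44.6. The median LPS mean was 29.5, at the 18.9th percentile, against 44.5 over all sites. Gained sites began at a median of 21.5 and ended at 56.5. In single libraries the median over the lost sites was 64.8, 65.4 and 63.5 in vehicle and 31.4, 29.5 and 27.7 in LPS. Losses were moderate in size: the median M was -1.04, a 2.06-fold lower signal, and the quartiles were -1.16 and -0.96. M was -1.2 or less at 326 sites, -1.5 or less at 46 and -2 or less at 3. The gap between groups had a median of 1.62-fold, from the highest LPS library to the lowest vehicle library of a site.

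**Figure D1:**
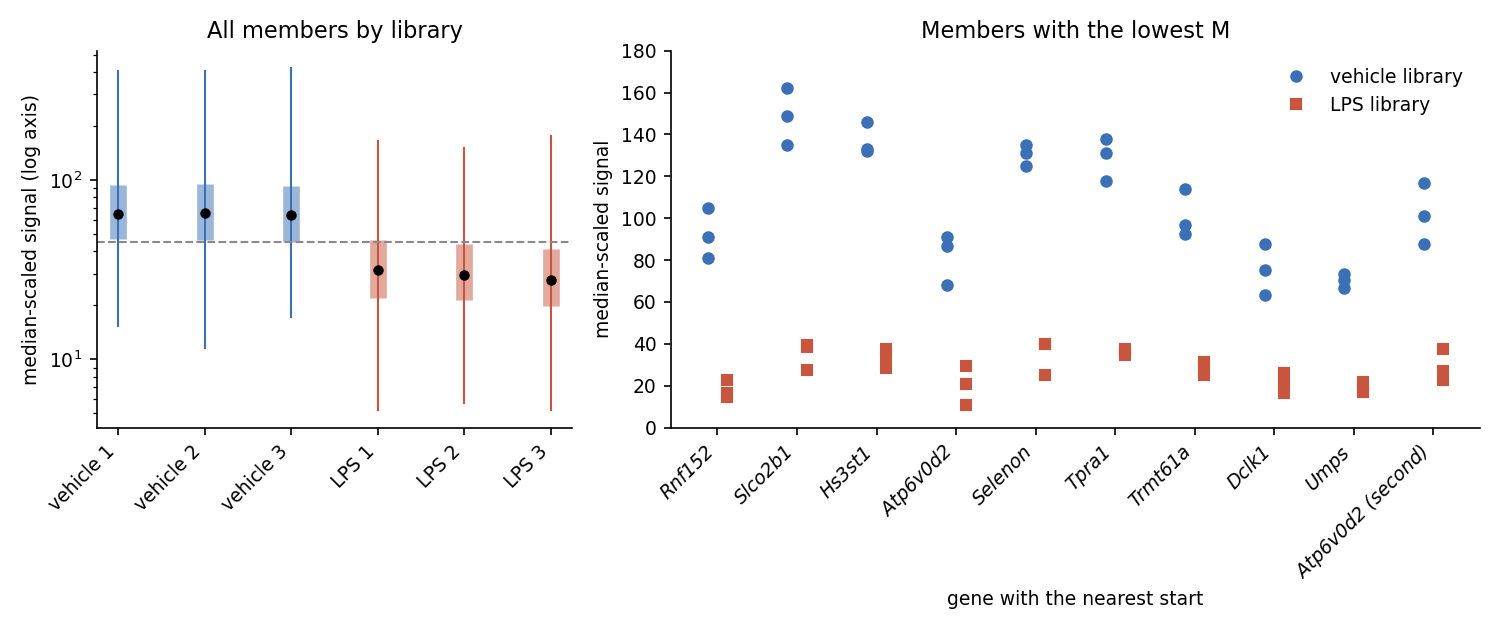
Left, median-scaled signal of the 1623 lost sites in each library on a log axis (thin line, lowest to highest site; thick bar, quartiles; point, median; dashed line, the median of all sites at 45). Right, the 10 sites with the lowest M, 1 symbol per library on a linear axis from 0, named by the gene with the nearest start; the LPS libraries reach at most 40.1 and the vehicle libraries at least 63.5, groups that the rule itself keeps apart.

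All LPS libraries lay below all vehicle libraries at 12804 sites (20.6%). By limma on median-scaled values, 8411 sites (13.5%) were lower at an adjusted p under 0.05, and on the deposited values, with no rescaling, 30 were. The authors' deposited table calls 230 sites lower at an FDR under 0.05 (0.370%), and all 230 are lost sites. In the authors' deposited table the log2 fold of every lost site is below 0, with a median of -0.55. These measures use the same libraries as the rule and add no support to it. Sites at the threshold show no break: the members just inside, nearest to Exoc6b, Ppp4r4 and Zfp395, had M of -0.90001, -0.90011 and -0.90013, and those just outside, nearest to Usp48, Letmd1 and Xpo7, had -0.89998, -0.89995 and -0.89995.

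How much of the loss at sites chosen by the rule is seen outside the choosing libraries was read by splitting the same libraries. For this, 1 vehicle and 1 LPS library were left out, sites were chosen on the other 4, and the pair left out was measured. All these libraries also served to define the lost sites, so no separate experiment was read. In the 9 such pairs the rule chose 1714 to 2436 sites. Only 56.5 to 72.3% of the chosen sites were among the lost sites. The values below therefore describe the chosen sites and not the lost sites as a set. The median M of the chosen sites was -1.06 to -1.04 in the choosing libraries and -0.93 to -0.66 in the pair left out. Over all sites the pair left out gave -0.07 to 0.02. The change was below 0 in the pair left out at 90.3 to 97.6% of chosen sites and 48.2 to 54.5% of all sites. It was again -0.9 or less at 30.3 to 53.4%, against 3.86 to 6.47% of all sites. The smallest median, -0.66, came with vehicle replicate 3 and LPS replicate 1 left out.

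The site with the lowest M, at chr1:105106843-105107843, lay inside no placed body of a named protein-coding gene. It was 177 kb downstream of the start of Rnf152, which encodes a lysosomal ubiquitin ligase. Its signal was 81.2, 105 and 91.1 in vehicle and 16.7, 14.7 and 22.5 in LPS. That is 92.4 ± 11.8 against 18.0 ± 4.03 (SD, n = 3 each), or 4.92-fold lower, with M of -2.30.

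Inside Slco2b1, a gene for an organic anion transporter, the site at chr7:99323687-99324687 had 135, 162 and 149 in vehicle and 38.7, 39.3 and 27.7 in LPS. It lay 21.1 kb downstream of the nearest placed start of the gene, and M was -2.05. The site at the start of Slco2b1, whose promoter is printed above, was weaker and changed less, from 39.9 to 20.9 on average (M of -0.90). Of the 4 sites nearest to this gene, 2 were lost and none was gained.

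Hs3st1 encodes a heparan sulfate sulfotransferase. Its site at chr5:39787839-39788839, 13.6 kb inside the gene, had 132, 146 and 133 in vehicle and 33.5, 37.6 and 28.6 in LPS, with M of -2.01. The rule itself requires every LPS library to lie below every vehicle library, here as at all lost sites.

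Among the 10 sites with the lowest M, the others lay nearest to Atp6v0d2 (M of -1.96 and -1.78), Selenon (-1.86), Tpra1 (-1.80), Trmt61a (-1.79), Dclk1 (-1.79) and Umps (-1.78). The sites nearest to Selenon, Dclk1 and Umps lay inside the bodies of other genes, Man1c1, Nbea and the integrin gene Itgb5. At each of these 10 sites the loss by M was at least 3.42-fold. None of the 10 lay within 10 kb of a gene start.

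The strongest lost sites in vehicle cells were read in the same way. The highest was inside Lyzl4, a lysozyme-like gene, at chr9:121464743-121465743, with 407, 406 and 246 in vehicle and 139, 138 and 105 in LPS. The vehicle libraries differed here, with replicate 3 well below the other two, and M was -1.46. The site at chr13:112576065-112577065, 24.0 kb upstream of Il6st, had 249, 306 and 285 in vehicle and 148, 151 and 132 in LPS (M of -0.96, and -0.89 without vehicle replicate 2). Il6st encodes gp130, the signal-transducing receptor chain shared by the interleukin 6 family. The remaining ones lay in Pkd1l2 (M of -1.34), 45.0 kb upstream of Wdr26 (-1.02) and at the histone gene H2ac20 (-1.13, and -0.85 without vehicle replicate 3). Histone genes are near-identical copies, so reads at H2ac20 and H1f3 may be shared with other copies.

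Lost sites were rare at gene starts, a property the rule did not use. Within 1 kb of a placed start lay 27 of 1623 (1.66%, Wilson 95% interval 1.15 to 2.41%, counting error only), against 15.1% of all sites and 4.51% of gained sites. The median distance was 40.5 kb, against 19.1 kb over all sites and 28.6 kb at gained sites. More than 100 kb from any placed start were 25.9% of lost sites and 13.3% of all sites. The lost sites with M of -1.2 or less stood further still, with 3 of 326 (0.920%) within 1 kb and a median of 48.8 kb. Inside the body of a named gene were 51.3% of lost sites, 49.7% of gained and 57.6% of all sites.

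**Figure D2:**
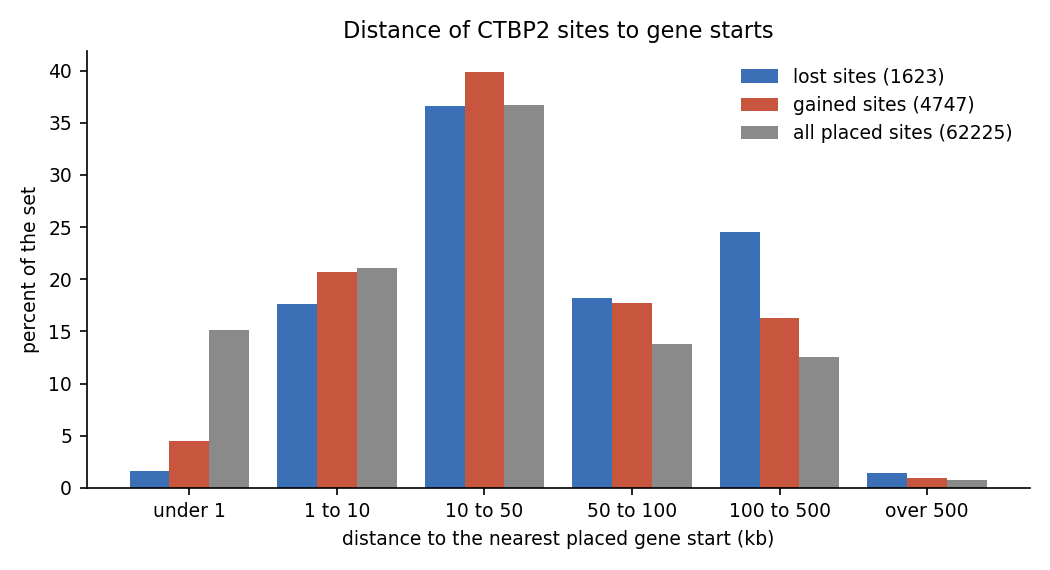
Percent of each set of sites (vertical axis, from 0) by distance to the nearest placed gene start in kb (horizontal axis), for lost, gained and all placed sites. Lost sites make the lowest bar under 1 kb (1.66% against 15.1% of all sites) and the highest from 100 to 500 kb (24.5% against 12.5%).

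The signal level of a site is tied to its place, since strong sites lie at gene starts more often. In the top quartile of vehicle signal 34.1% of sites were within 1 kb of a start, and of its 675 lost sites 2.67% were. In the next quartile the shares were 18.1% of sites and 0.864% of 579 lost sites, and in the one below 5.66% and 0.935% of 321. In the lowest quartile, with 48 lost sites, they were 2.69% and 2.08%. In the upper 3 quartiles the share was lower at lost sites than at all sites of like vehicle level, and in the lowest 1 lost site lay within 1 kb of a start. The median distance followed this split: from the top quartile down it was 35.5, 44.7 and 48.3 kb at lost sites against 9.32, 18.6 and 23.5 kb at all sites, but in the lowest quartile it was shorter at lost sites, 16.7 against 25 kb.

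The 27 lost sites at gene starts included Bank1, Fat3, Lrrc14b, Spata25, Ccdc78, Haao, H2ac20, H1f3, Fam214a and Gpnmb, the 10 with the lowest M. At the start of Bank1, a B cell scaffold gene, the signal was 182, 209 and 133 in vehicle and 72.2, 66.3 and 47.6 in LPS (chr3:136031333-136032333, M of -1.48). At Gpnmb, a lysosome-associated membrane glycoprotein of macrophages, the site 42 bp upstream of the start had 130, 140 and 189 in vehicle and 80.6, 78.5 and 52.8 in LPS (chr6:49012964-49013964). M at Gpnmb was -1.10, and the separation of the 2 groups is a condition of the rule. At Cd36, the scavenger receptor for oxidised lipids, the site at the start went from 64.9 to 33.8 on average (M of -0.92). Dcstamp, which is needed for the fusion of macrophages and osteoclasts, had a lost site at its start with 53.8, 47.4 and 53.1 in vehicle and 29.3, 24.5 and 26.8 in LPS (M of -0.91, and -0.85 without LPS replicate 2).

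The 18 promoters with a lost site differed in base composition from promoters that hold any site. They had a median GC content of 48.8% and 4.50 CG dinucleotides in 300 bases, against 61.7% and 22 in 7334 promoters with a site, and 52.7% and 7 in all 32851 promoters of the table. With 3 CG or fewer there were 7 of 18 (38.9%), against 4.04% of promoters with a site and 31.4% of all. Of the printed ones, Slco2b1 held 2, Cd36, Cnr2 and Bank1 held 3, Fcrls held 6 and Gpnmb 9. Among those not printed, Padi2 held 22 and H2bc18 held 15.

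The motif GGGCGGG of KLF and SP factors, which is itself rich in CG, was in 4 of 18 lost promoters (22.2%), in 51.1% of promoters with a site and in 25.6% of all. The E-box CAGGTG was in 6 of 18 (33.3%), against 17.2% and 20.2%. The C/EBP letters TTGCNNAA were in 4 (22.2%), against 8.26% and 10.8%. The MEF2 letters TATTTNTAG were in 3 (16.7%), in Lrrc14b, Cnr2 and Rasgrp3, against 0.750% and 1.55%. These letters overlap those of a TATA box, as in Lrrc14b, where the match lies 31 bases before the start. The NF-kB letters GGANTTTCC were in none of the 18, and in 1.45% of promoters with a site. With 18 promoters each count is small, and no test was made.

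Some lost sites lay close together. When lost sites with centres within 50 kb were linked, 603 of 1623 (37.2%) fell in 245 runs of 2 or more, 76 runs held 3 or more and 8 held 5 or more. The 1623 gained sites with the highest M, linked in the same way, fell in runs at 43.9%, and all 4747 gained sites at 61.8%, and no test of the difference was made.

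In the far part of Fat3, a large atypical cadherin gene, a run held 7 lost sites among 10, with M from -1.36 to -0.98 and a highest M of -0.57 over all 10. Atp6v0d2 is the gene of a proton pump subunit found in osteoclasts and macrophages. There 6 of 15 sites in a run of 94.3 kb were lost and none had M above -0.22. Further runs lay in Rptor, a component of the nutrient-sensing kinase complex mTORC1, with 6 of 10 sites lost, and across Abhd12 and Pygb, with 5 of 13. The nearest placed start of the Rptor run is that of Chmp6. Neither of these runs held a gained site.

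The sites around lost sites were also lower on average. Of the other sites, those within 5 kb of a lost site had a median M of -0.36, and 82.5% of the 861 were below 0. The median was -0.26 at 5 to 20 kb, -0.14 at 20 to 50 kb, -0.03 at 50 to 200 kb, 0.03 at 200 to 1000 kb and 0.06 beyond. The share of gained sites went from 1.05% within 5 kb to 9.93% beyond 1000 kb. Close sites can share fragments, which were 500 to 1000 bp long, and the part of this in the pattern was not tested. Lost sites did not stand in denser stretches: the nearest other site was at a median of 5.36 kb, against 4.69 kb over all sites, and 15.1% had no other site within 20 kb, against 11.1%.

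**Figure D3:**
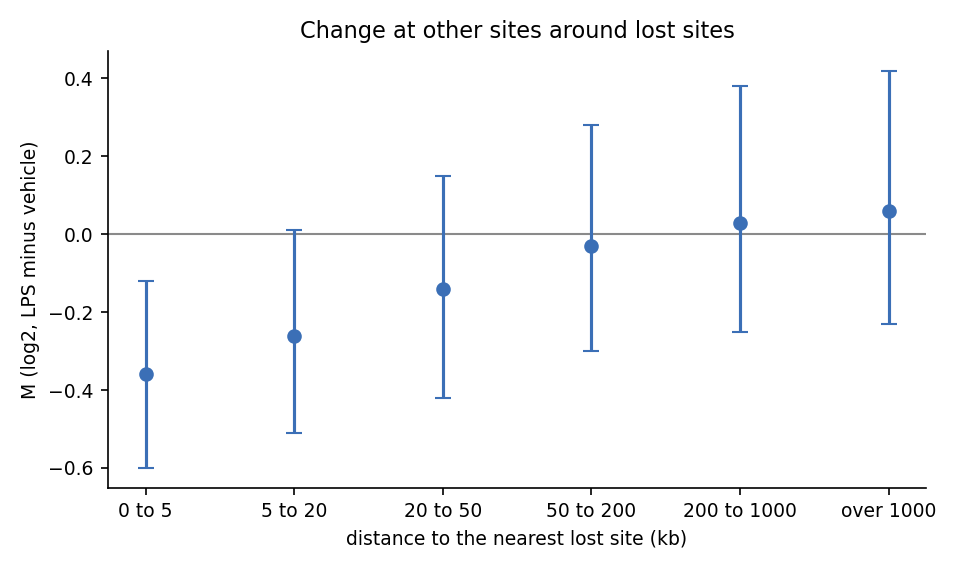
Median M of sites that are not lost (points, with quartiles as bars, log2 scale) by distance to the nearest lost site in kb. The median rises from -0.36 within 5 kb to 0.06 beyond 1000 kb.

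Of chromosomes, X had the highest share of lost sites, 45 of 977 (4.61%), and 11 the lowest among the autosomes, 88 of 4739 (1.86%).

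By nearest placed start, 1175 genes had at least 1 lost site, out of 12913 with any site (9.10%). A single lost site was found at 891 of them and 4 or more at 39. Of the 39 genes, 29 had no gained site. Of genes with a lost site, 24% (282 genes) also had a gained one, against 20.3% of all genes with a site. These shares were not matched for the number of sites per gene. Whether lost and gained sites tend to share genes or to keep apart was therefore not tested. Beside Fat3 and Atp6v0d2, genes with many were Chmp6 with 7 of 23 sites and St6gal1, Sulf2 and Dnmt3a with 6 each of 16, 25 and 32.

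Gene lists were read by the same counts, beside 2.61% of sites over all genes. Gained sites made up 7.63% over all genes. Genes for alternative activation and repair had 8.24% of 255 sites lost and 4.71% gained, and those for lysosome and proton pump 7.81% of 192 lost and 1.56% gained. Lipid metabolism had 4.04% of 223 lost and 6.73% gained. Macrophage identity had 3.65% of 438 lost and 9.13% gained, and adhesion and cytoskeleton 4.31% of 325 lost and 12.9% gained. Fat3 alone held 6 of the 14 lost sites of the adhesion list, and without it 2.55% were lost, under the share over all genes. Alternative activation and repair had 7.94% lost without Klf4, and lysosome and proton pump 5.11% without Atp6v0d2. Of the 9 lost sites then left in the lysosome and proton pump list, 4 were at Gpnmb alone. Lipid metabolism had 3.27% without Mylip and macrophage identity 3.04% without Cebpa, closer to the share over all genes. Surface receptors of resting macrophages were at that share, with 2.67% of 225 lost and 7.11% gained. Osteoclast and cell fusion had 5.98% of 117 lost and 10.3% gained. Without Atp6v0d2, which is also in the lysosome and proton pump list, 0.990% of that list was lost, under the share over all genes. Inflammatory mediators had 0 of 258, where 124 were gained. The NF-kB pathway had 1 of 266, 297 kb downstream of the start of Map3k8. The interferon response had 1 of 152, 133 kb upstream of the start of Zbp1. The lists were chosen with results of these data known, and 1 gene can hold many of a list's lost sites.

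**Figure D4:**
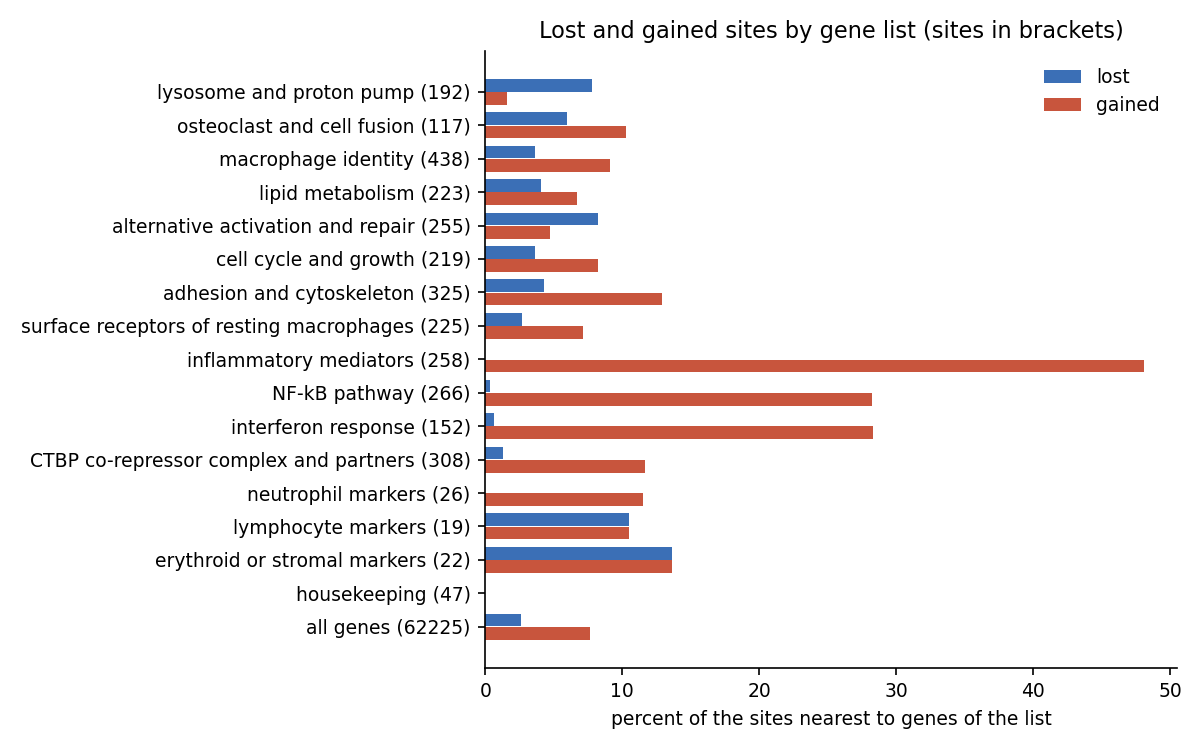
Percent of the sites nearest to genes of each list that were lost or gained (horizontal axis, from 0), with the number of sites in brackets. Inflammatory mediators have no lost site and 48.1% gained, while alternative activation and repair has 8.24% lost and 4.71% gained.

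Of the alternative activation and repair genes with a site, 10 of 21 had a lost one, against 9.10% over all genes. Genes of this list held 12.1 sites each on average and all genes 4.82, so such counts of genes are not on 1 footing, here and in the lists that follow. Lost sites were 3 of 6 at Stab1, a scavenger receptor of tissue macrophages, 3 of 8 at Gas6, the ligand of receptors that clear dying cells, and 3 of 16 at Vsir, an inhibitory immune receptor. The Vsir site at chr10:60197748-60198748 had 80.1, 101 and 92.3 in vehicle and 24.1, 24.5 and 29.4 in LPS (M of -1.77). At Mrc1, the mannose receptor, 1 of 15 sites was lost, 18.5 kb upstream, with M of -1.42, and the site at its start went from 115 to 69.7, short of the rule (M of -0.71). Klf4, a transcription factor of alternative activation, had 4 of 41, all more than 200 kb upstream of its start, the lowest with M of -1.43. Clec10a, F13a1, Igf1, Retnla and Slco2b1 had 1 or 2 each.

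In the lysosome and proton pump list 7 of 26 genes had a lost site, and Atp6v0d2 and Gpnmb held 10 of the 15. At Gpnmb 4 of 16 sites were lost. The strongest of its lost sites was at the start, and the 3 others lay 17.6, 18.7 and 26.4 kb downstream of it at low level, with vehicle means of 24.8 to 36.4. The farthest had 25.2, 26.2 and 57.7 in vehicle, and its M was -0.71 without vehicle replicate 3. Tfeb, the transcription factor of lysosomal genes, had 1 of 11, inside the gene at chr17:48070405-48071405, with 132, 127 and 120 in vehicle and 41.9, 54.8 and 53.7 in LPS (M of -1.32 on the log2 scale). Atp6v0d1, Atp6v1a, Ctsb and Ctsl had 1 each.

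Macrophage identity genes with a lost site were 10 of 26. At Cebpa, a transcription factor of the myeloid lineage, 3 of 10 were lost, the strongest 20.3 kb upstream at 172, 149 and 140 in vehicle and 58.6, 62.2 and 60.6 in LPS (M of -1.33), and 1 was gained 8.45 kb downstream. Maf, a transcription factor of mature macrophages, had 3 of 48 lost and 9 gained. Over the list 12 genes had a gained site. Trem2, a lipid-sensing receptor, had a lost site 4.41 kb upstream with M of -1.19, while the site at its start went from 218 to 133 and was not lost (M of -0.70). The complement gene C1qb had 1 of 2 and Tyrobp, the adaptor of Trem2, 1 of 3.

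Of lipid metabolism genes, 8 of 25 had a lost site. They included Mylip, which targets the LDL receptor, with 2 of 9, the lipid droplet gene Plin2 with 1 of 9 (M of -1.06) and Lpl, lipoprotein lipase, with 1 of 8 (M of -1.13). The cholesterol exporters Abca1 and Abcg1 had 1 of 20 and 1 of 13. In the adhesion and cytoskeleton list, Dock1 and Dock2, which activate Rac, had 3 of 9 and 3 of 12. The cell cycle and growth list had 3.65% of 219 sites lost and 8.22% gained, and 3.17% lost without Cdk6. In it Hmga2 had 2 of 29 lost and 0 gained, both lost sites lying 140 kb or more upstream of its start. Myc had 2 of 55 lost and 4 gained, and Mki67 1 of 22 lost and 3 gained. Of surface receptors, Cxcr4 had 3 of 13, 1 of them 155 kb upstream, Cx3cr1 1 of 8 and Tlr4, the LPS receptor, 1 of 10. The list of the CTBP co-repressor complex and its partners had 4 of 308 lost (1.3%) and 36 gained (11.7%), with a median M of 0.17. Its lost sites lay nearest to Prdm16 (2 of 2), Klf8 (1 of 2) and Bcl11a (1 of 14, 215 kb from its start).

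Markers of other cells were counted as well. Neutrophil markers had 0 lost of 26 sites, lymphocyte markers 2 of 19 (10.5%), both at Il7r, and erythroid or stromal markers 3 of 22 (13.6%), all at Cxcl12, the one with the lowest M 270 kb from its start. These are the highest shares of the 16 lists, each from few sites at 1 gene. Housekeeping genes had 0 of 47. The part of other cells in the lost sites was not tested.

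**Figure D5:**
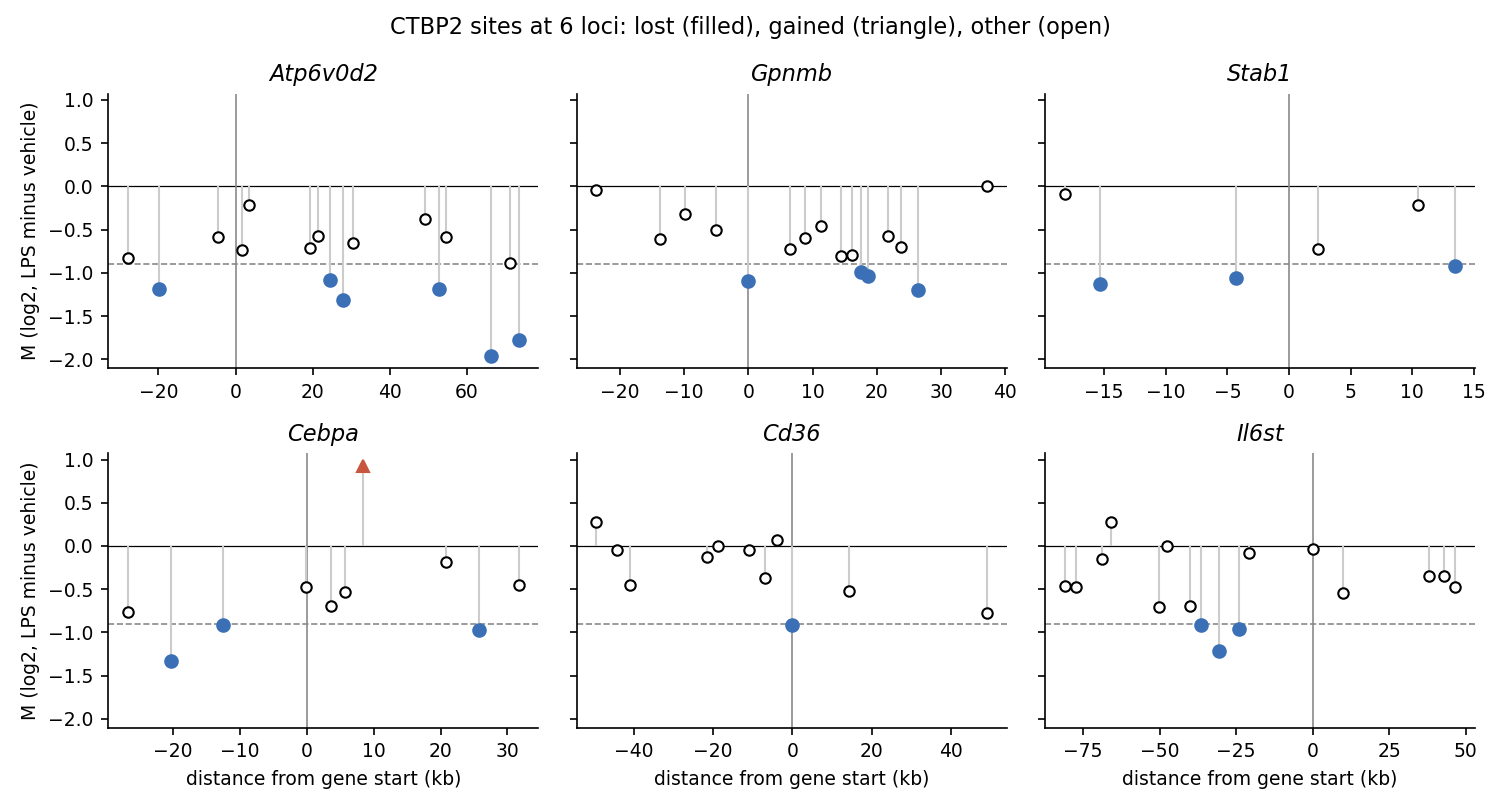
M of every site nearest to the gene (vertical axis, log2) by distance from the gene start in kb (horizontal axis, downstream to the right), at 6 loci chosen after the values were seen. Filled points are lost, triangles gained and open points other sites; the dashed line is the threshold of -0.9. At Atp6v0d2, Gpnmb and Stab1 none of the sites drawn lies above 0, while at Cebpa 1 gained site lies 8.45 kb from the start.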

How the data were processed

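CTBP2 was measured by chromatin immunoprecipitation and sequencing in 3 vehicle and 3 LPS libraries. The authors deposited 1 table of sites with a normalised signal per library, log2 concentrations, a log2 fold, p-values and FDR. Alignment and peak tools, per the submitters' processing notes, included BWA 0.7.17 and MACS3 3.0.0a5, with DiffBind 3.16 run in R 4.4.1. FastQC, bedtools, deepTools 3.5.1, SAMtools 1.9 and Picard 3.2.0 are listed as well, with the builds mm39, GRCm39 and mm10. The sources used here do not say which step used which build or whether peaks were called per library. Values in each signal column were whole multiples of 1 step within 0.1 read up to 300 reads, and the step was read as 1 read to estimate depth. A check of the columns as recovered whole reads did not accept them, so the depths are estimates and no count test was run.

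The members, gene lists, motifs and named sites were chosen with earlier results of these data known. Values were median-scaled with a pseudocount of 1, using Python 3.11.15, numpy 2.4.6 and pandas 2.3.3. The background was limma 3.58.1 in R 4.3.3 (trend, robust, no covariate) with Benjamini-Hochberg adjustment over all sites. It was tested on simulated data with 200 of 62236 sites changed by 1.5 on the log2 scale. With each site's own spread shuffled over sites 153 of the 200 were called in the right direction, and with the median spread at each level 192. Of the unchanged sites 2 and 19 were called. The drawn noise was independent between sites, with no effect shared by a library, and few sites were changed. These counts therefore say little about errors among the calls in the real data.

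Genes were placed by a path of shifts along each chromosome, in steps of 250 bp up to 1 Mb, with a penalty of 25, an assumed share of 0.4 and at least 8 hits per stretch. It gave 105 stretches, and the shift had a median size of 138 kb. This method and its settings were chosen after seeing the data: 4 settings were tried, and the one used was picked because short stretches with few starts were absent. The gene set was then widened and predicted genes dropped after names were seen. Of 20009 named genes, 2636 with no strand were not used.

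Named sites are the 10 with the lowest M, the 5 with the highest vehicle mean, up to 10 within 1 kb of a gene start, up to 3 genes per list, the members of the 5 longest runs, and 3 sites on each side of the threshold. Some sites that this rule takes are not reported here. Other sites named by their counts in a list or locus were chosen after their values were seen. A planned reading of site sequences was not made, since no genome of the build of the sites was used here, and promoters were read in its place. Alternatives were other scalings, a pseudocount of 5, a floor of 30, other thresholds, a replicate block and leaving out each library.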

Additional observations from a re-analysis of the deposited data

How the results depend on the processing

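The count of lost sites was 1843 on column totals, 1325 on deposited values, 2097 after quantile normalisation, 1346 with a mean of at least 30 and 1582 to 2138 without single libraries. It was 1076 with a pseudocount of 5, 2557, 989 and 326 at M of -0.8, -1.0 and -1.2, and 1634 with no condition on overlap. All 1076, 989 and 326 are among the 1623. Of the single libraries, leaving out LPS replicate 3 kept the fewest of the 1623, 1258 (77.5%), while deposited values kept 1240 (76.4%). The share of lost sites within 1 kb of a gene start was 1.74 to 2.25% without single libraries, 1.78 to 2.05% under the other scalings, pseudocount and floor, and 1.60 to 2.03% under the 4 other settings of the gene placement, added after seeing the data. Those other settings gave 40.8 to 46.0% of held-out starts with a site, against 45.2% as used. The nearest gene was the same at 96.5 to 99.2% of lost sites under the other 3 path settings and at 80.0% with the first gene set. The held-out median M, -0.84 over the 9 pairs, was -1.04 with a threshold of -1.2.

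Over all sites limma called 8411 lower and 10039 higher. At an adjusted p under 0.01 it called 4703 lower. On deposited values the calls were 30 lower and 1178 higher, so the split rests on the scaling. Without single libraries they were 6030 to 7914 lower and 7691 to 10083 higher. With the replicate block they were 10400 and 11692. The labels do not say whether same-numbered libraries are paired. In their deviations from group means same-numbered libraries correlated at 0.111, 0.038 and 0.214. Those of unlike number correlated at -0.205 to 0.148, the highest being vehicle replicate 2 with LPS replicate 1. A shared replicate effect was not tested. Of 590 alternative values of M at 54 named sites none reversed, and 589 moved by less than the spread between libraries. The other was Pkd1l2 after quantile normalisation (-1.46). For most settings this was largely fixed in advance, so the counts add no support. Leaving out 1 library cannot reverse M, since the rule keeps every LPS library below every vehicle library. It can hardly move M past that spread, and the floor of 30 leaves M unchanged. Of the 54, 9 had M above -0.9 without at least 1 library, between -0.89 and -0.71: sites of H2ac20, Gpnmb, Exoc6b, Dcstamp, Zfp395, Ppp4r4, Map3k8, Bcl11a and Il6st. Not run were edgeR, since the values are normalised and could not be established as whole reads, and the site motif shares, which need a genome.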
